A study of Mus musculus with 202 samples.

Results

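The SRSF, hnRNP and SF3 families of pre-mRNA splicing factors were followed in single cells of a mouse pancreatic cancer line. Members were the genes whose symbol is Srsf plus a number, begins with Hnrnp, or is Sf3a or Sf3b plus a number. This gave 38 of the 28987 genes in the deposited table, with 11 SRSF, 19 hnRNP and 8 SF3 genes. The names use the symbols as deposited, so Hnrpdl and Hnrpll, which stand under older symbols, are not among the 38.

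The cells came from a male pancreatic ductal adenocarcinoma line of KPC origin, grown from a liver metastasis and kept in culture. Per the labels' protocols, the cells were detached with trypsin, stained with an antibody against E-cadherin, the adhesion protein of epithelial cells, and sorted into positive (Ecad+) and negative (Ecad-) cells. No treatment or gene change separates the groups, and both come from the same line, so a difference is one between sorted fractions of 1 line. The title of the study names endoplasmic reticulum stress and latent metastasis as its subject. Single cells were captured on a microfluidic chip (Fluidigm C1) and amplified as full-length cDNA without molecular identifiers or strand marks. The table holds 104 Ecad+ and 98 Ecad- libraries. In 5 pairs the libraries correlated at 0.984 to 0.994 across all genes, against 0.939 for the next pair, and each pair was averaged and counted as 1 cell. This left 100 Ecad+ and 97 Ecad- cells. The library names also fall into 3 sets by their ending, called library sets 1 to 3 here; the labels do not say what the ending stands for. The labels name no separate cultures or animals within a group, so each group is 1 sample, cells are not replicates, and no test was made.

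SR proteins (the SRSF family) bind exonic enhancers through RNA recognition motifs and recruit the splicing machinery through a domain rich in arginine and serine, which kinases phosphorylate. The hnRNP proteins coat nascent RNA, and many of them oppose the use of an exon or splice site. SF3A and SF3B are the protein complexes of the U2 snRNP that hold it at the branch site, and they are needed for the splicing of most introns rather than for choosing between exons.

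Levels are in TPM, a measure that counts transcripts per length against a fixed total in each cell, so genes can be compared with each other. A group level is the mean TPM over its cells. A pseudocount of 1 was added to both levels, the Ecad- level was divided by the Ecad+ level and log2 was taken. From this the median over all genes at or above a floor was subtracted. This median was 0.31, and the centred value is called the relative log2 ratio below; 0 means that a gene followed the median gene. The floor asked for 5 TPM or more on average and for 10% or more of cells above 0, which 7227 genes reached. A gene is called higher or lower at a relative log2 ratio of at least 0.5 in size. Levels, family sums and counts of cells above or under a level are given in TPM without this centring. Of the members, 34 reached the floor: 10 SRSF, 16 hnRNP and all 8 SF3 genes. Srsf12 (mean 0.00 TPM in Ecad+ cells and above 0 in 3 Ecad- cells), Hnrnpul1 (4.47 and 4.65 TPM), Hnrnpul2 (2.67 and 2.64 TPM) and the pseudogene Hnrnpa1l2-ps (0.077 and 0.022 TPM) did not.

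Features of the libraries differed between the groups and bear on every value below. Ecad+ cells had a median of 10338 genes above 0 and Ecad- cells 8694. Mitochondrial genes made up 30.0% of TPM in the median Ecad+ cell and 8.78% in the median Ecad- cell, and this share was under 1% in 1 Ecad+ and 40 Ecad- cells. By library set, 6 of 33, 12 of 32 and 22 of 33 Ecad- libraries were under 1%. Values without these cells (99 Ecad+ and 57 Ecad- left, all-gene median 0.14) are therefore given beside the results. Of 10 ductal epithelial markers 7 reached the floor, and all 7 were lower in Ecad- cells in each library set. Among them is Cdh1, which encodes E-cadherin, the protein used for sorting. Without the cells under 1%, 6 were called lower and Epcam was at -0.10. Sox9, which is under the floor, was at 0.40 over all cells and -0.03 without those cells. The summed levels of the markers were 778 to 12027 TPM in Ecad+ and 5.37 to 12191 TPM in Ecad- cells. Markers of T and B lymphocytes, fibroblasts, endothelial cells, and acinar and endocrine cells had no member at the floor. Their sums began at 0 and reached 1.72, 5.03, 1.11 and 24.2 TPM in Ecad+ and 24.0, 27.4, 67.7 and 38.7 TPM in Ecad- cells, and Col3a1, Lum, Cpa1, Ins1, Ins2, Gcg and Sst were listed at 0 in every cell. Of 7 myeloid markers (sums of 0 to 126 and 0 to 370 TPM) Ptprc, Emr1 and Tyrobp were listed at 0 in every cell. Cd68, with means of 6.35 and 30.0 TPM and a relative ratio of 1.77 (1.25 without the cells under 1%), alone reached the floor. Of 5 hepatocyte markers (0 to 218 and 0 to 642 TPM) Ttr alone reached it, and Cyp3a11 was listed at 0 in every cell. Their part in the results was not tested. The running number in the library names separates the groups fully, so an effect tied to it and the sorted group cannot be told apart.

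The families did not stand apart from the median gene as a whole. Of the 34 members at or above the floor, 5 were called higher in Ecad- cells, where 20.8% of all 7227 genes were, and 4 were called lower, where 21.3% of all genes were. The remaining 25 members lay inside the threshold. The median relative log2 ratio of the 34 was -0.11: 15 of them exceeded the median gene and 19 did not reach it. The higher members were Srsf11, Hnrnph3, Hnrnpc, Hnrnph2 and Sf3b4, and the lower ones Hnrnpa1, Hnrnpl, Hnrnpr and Srsf2. Without the cells of low mitochondrial share, 2 members were called higher (Srsf11 and Hnrnpc) and 2 lower (Hnrnpa1 and Hnrnpl). The calls over all 7227 genes also fell, to 1006 higher and 1141 lower, from 1502 and 1541.

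**Figure D1:**
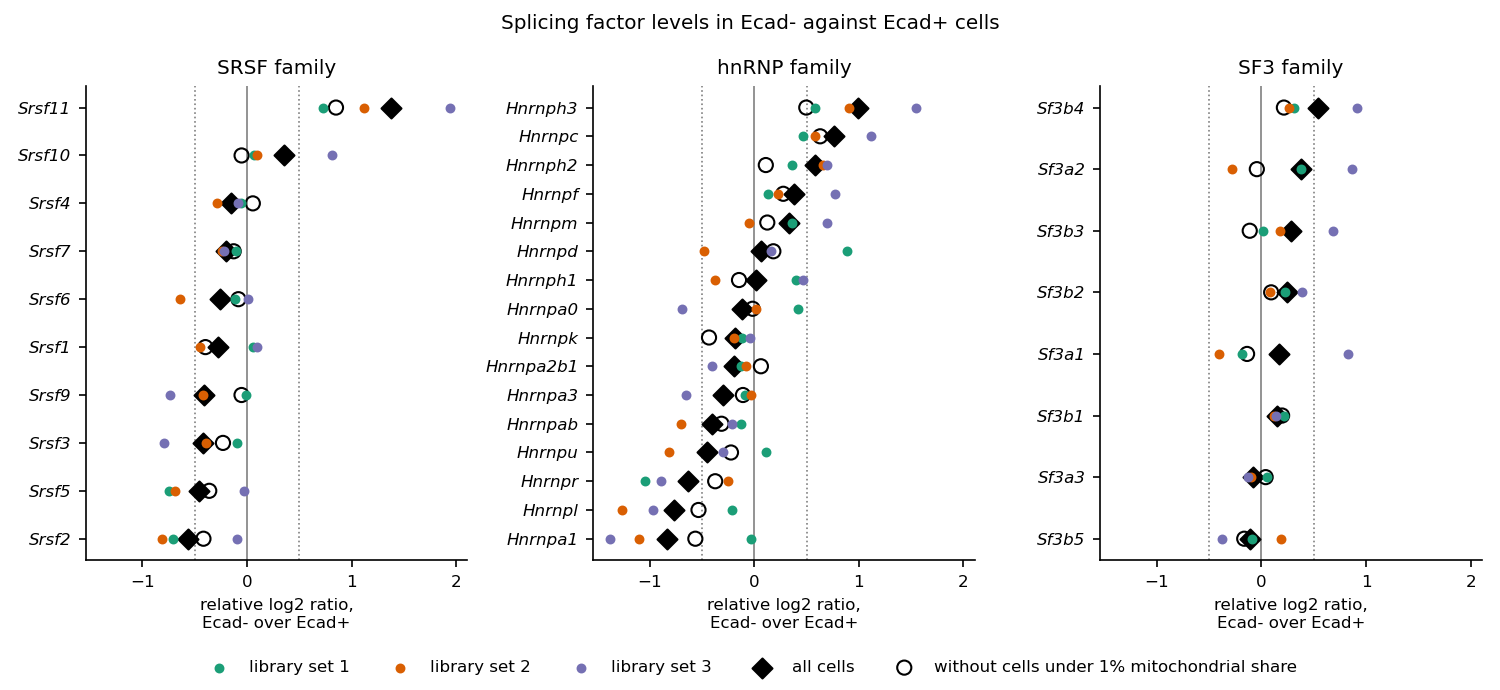
Relative log2 ratio of each of the 34 members, by family; diamonds stand for all cells, coloured points for the 3 library sets and open circles for the cells with a mitochondrial share of at least 1%. Dotted lines mark 0.5 in either direction, and Srsf11 at 1.37 and Hnrnpa1 at -0.83 are the ends of the range.

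Sequences are shown for Hnrnpc and Hnrnpa1, 2 RNA-coating proteins of the same family whose relative ratios passed the threshold in opposite directions under each of the 14 centred processing alternatives. Each run is the stretch from 250 to 51 bases upstream of the start site in RefSeq (GRCm38.p6), on the strand of the gene. The window of Hnrnpc is chr14:52104072-52104271 (minus strand) and that of Hnrnpa1 is chr15:103240147-103240346 (plus strand). Neither overlaps an annotated gene in GENCODE M21, where the genes start 7 and 35 bases from the RefSeq sites. Capitals mark matches on either strand to 6 motifs, namely the CCAAT box (CCAAT), the GC box (GGGCGG), the ETS site (CCGGAAG), the E2F site (GGCGGGAA), the core of the C/EBP-ATF element (TGATGNAA) and the cAMP response element (TGACGTCA); GC box and E2F letters can overlap.
Hnrnpc: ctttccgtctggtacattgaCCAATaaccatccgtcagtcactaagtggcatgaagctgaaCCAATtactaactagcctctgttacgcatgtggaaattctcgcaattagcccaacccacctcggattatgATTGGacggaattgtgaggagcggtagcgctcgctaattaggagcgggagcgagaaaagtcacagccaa
Hnrnpa1: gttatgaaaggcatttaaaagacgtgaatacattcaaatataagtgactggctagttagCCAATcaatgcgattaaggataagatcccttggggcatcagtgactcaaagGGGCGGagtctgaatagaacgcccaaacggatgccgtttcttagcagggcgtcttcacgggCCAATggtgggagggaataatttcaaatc
The Hnrnpc window held 3 CCAAT boxes and no other match, at 48.5% G and C. The Hnrnpa1 window held 2 CCAAT boxes and 1 GC box, at 45.0% G and C. Both thus carry the CCAAT letters more than once. Whether these letters bear on the levels was not tested. A match is a string of letters and not evidence of binding.

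Of the 34 members, 32 have an entry in the RefSeq promoter table, all but Sf3b4 and Sf3b5. A gene was counted where any of its entries held the motif. The CCAAT box was found in 16 of 32 members (50.0%) against 31.8% of the 27025 genes in the table, and in 28.4% of its 32851 promoters. The GC box was found in 20 members (62.5%) against 27.2% of genes and 24.6% of promoters. The ETS site was found in 8 members (25.0%) against 4.58% of genes and 3.98% of promoters. The E2F site was found in 6 members (18.8%), Hnrnpa2b1, Hnrnpf, Hnrnpr, Srsf1, Srsf10 and Srsf4, against 1.60% of genes and 1.40% of promoters. These 4 motifs were thus more frequent among the members than in the whole table, which also holds genes not measured here. The members had all reached the floor, while the table was not limited in this way, so the compared sets are unlike. The C/EBP-ATF core, which stress-response factors of the ATF4 type can bind, was found in 1 member (Hnrnpa2b1), against 3.14% of genes and 2.72% of promoters, and the cAMP response element in 0 of 32 members, against 0.955% of genes and 0.828% of promoters. For each gene the highest value among its entries was taken. The median over the members was 18.5 CG dinucleotides and 63.0% G and C, against 4 and 52.0% over the genes of the table. By this measure the members were also richer in both. The 32 members had 45 entries, against 32851 for 27025 genes, and more entries can raise a highest value and a count of genes with a motif. The motif shares were not adjusted for the number of entries, for G and C or for the level of the genes.

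In the SRSF family, 1 member was called higher, 1 lower and 8 neither. The median relative log2 ratio was -0.27, and 2 members (Srsf11 and Srsf10) lay above and 8 below the all-gene median. Library sets 1 to 3 gave family medians of -0.07, -0.41 and -0.06, and leaving out the cells of low mitochondrial share gave -0.10. Summed over the family, a cell held between 443 and 2887 TPM with a median of 1329 in Ecad+ cells, and between 160 and 5661 TPM with a median of 1326 in Ecad- cells. The medians of the sums thus lay close together while the Ecad- cells spread further in both directions.

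Srsf11, an arginine- and serine-rich factor that binds other SR proteins (chr3:158010473-158036639, minus strand), stood highest of the 34 members. Its level ranged from 28.1 to 247 TPM with a median of 83.9 over the Ecad+ cells. It ranged from 19.9 to 2176 TPM with a median of 191 over the Ecad- cells. No cell of either group was at 0, and 37 of the 97 Ecad- cells lay above the highest Ecad+ cell, while 7 lay under the lower quartile of the Ecad+ cells. The means were 97.1 ± 47.6 (SD, 100 cells) and 314 ± 367 TPM (SD, 97 cells), a relative log2 ratio of 1.37. Library sets 1, 2 and 3 gave 0.73, 1.12 and 1.94, and the value was 0.85 without the cells of low mitochondrial share. In the same cells it was 0.39, 0.96 and 1.52 by set. The gene was thus higher in Ecad- cells in each set, with and without the cells of low share, and by unequal amounts. A gene on the same strand, Gm43362, overlaps it, and its 5′ end is separated by 22 bases from that of the oppositely transcribed Lrrc40, so no upstream sequence is shown.

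**Figure D2:**
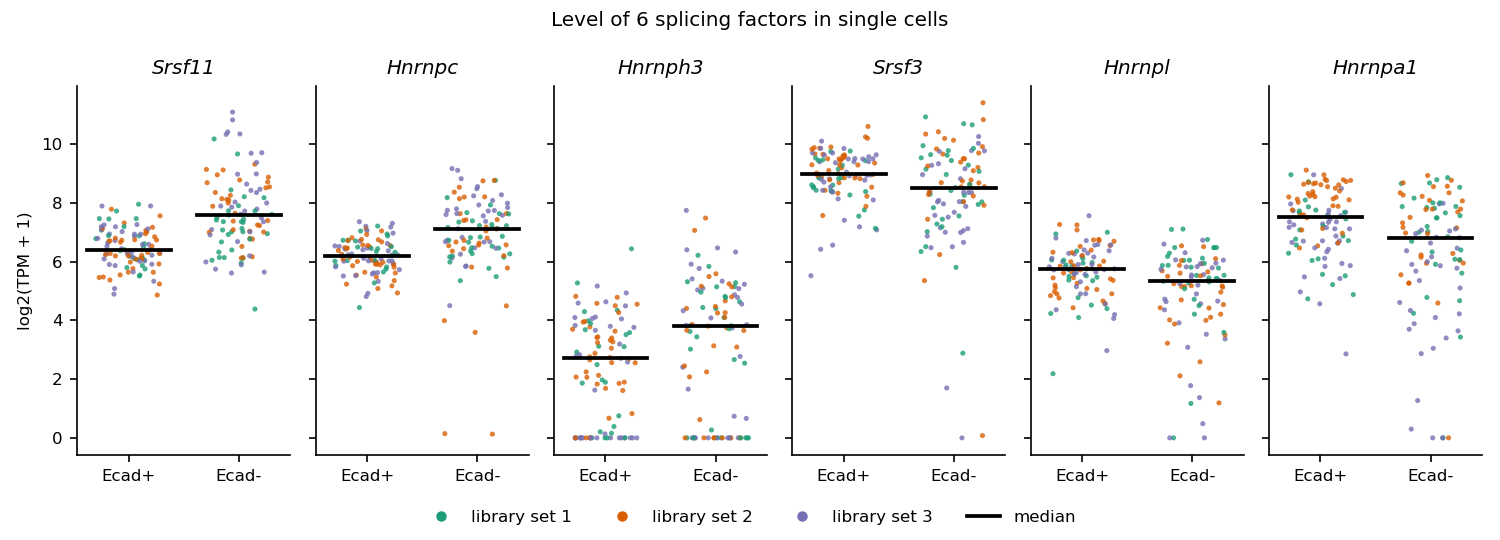
Level of 6 members as log2(TPM + 1) in each of 100 Ecad+ and 97 Ecad- cells, coloured by library set, with the median as a bar. Srsf11 and Hnrnpc have 37 and 39 Ecad- cells above the highest Ecad+ cell, and Hnrnpl and Hnrnpa1 have 0.

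Srsf3, the smallest canonical SR protein, which also takes part in mRNA export, was the most abundant member of all. It ranged from 44.9 to 1553 TPM with a median of 504 in Ecad+ cells and from 0 to 2714 TPM with a median of 366 in Ecad- cells. The groups overlapped over nearly the whole range: 5 Ecad- cells lay above the highest Ecad+ cell and 49 under the Ecad+ lower quartile. The means of 560 and 518 TPM gave a relative log2 ratio of -0.42, within the threshold (-0.09, -0.39 and -0.79 by set, and -0.23 without the cells of low share). The family was made up differently in the sorted groups. Srsf11 made up 7.00% of the family's summed mean level in Ecad+ and 19.5% in Ecad- cells, and Srsf3 made up 40.3% and 32.2%. Srsf11 thus went from the sixth place in the family to the second. By set, the Srsf11 share was 8.24%, 5.69% and 7.96% in Ecad+ and 14.3%, 14.7% and 29.1% in Ecad- libraries. Without the cells of low share it was 6.93% and 13.5%.

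**Figure D3:**
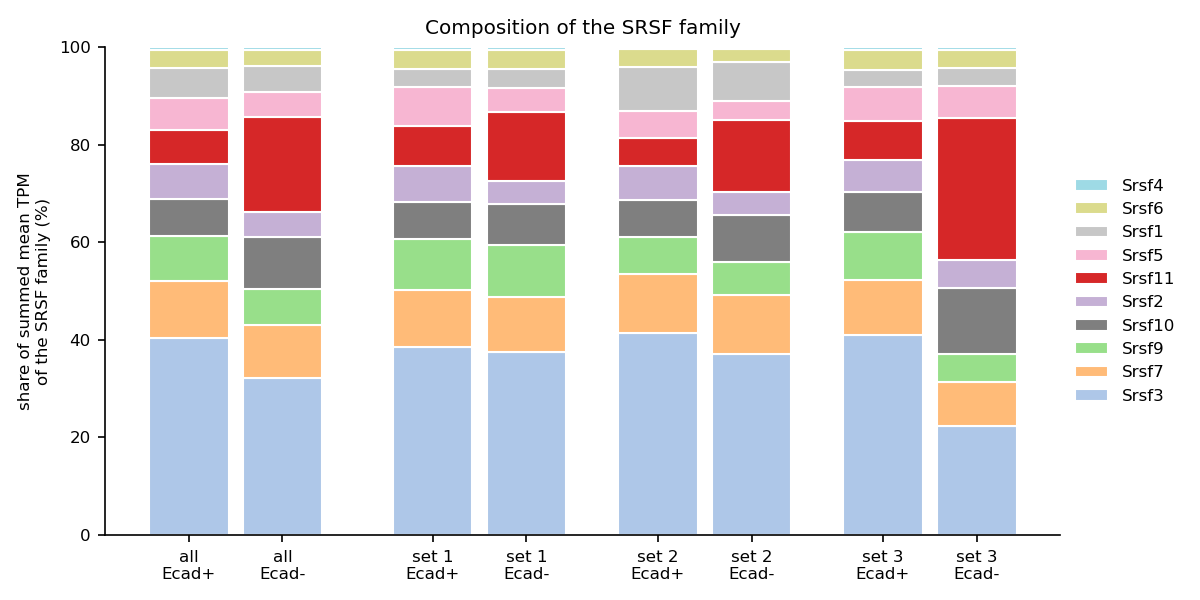
Share of each SRSF member in the summed mean TPM of the family, for all cells and for each library set. The Srsf11 share (red) is larger in Ecad- than in Ecad+ cells in all 3 sets, and in set 3 it reaches 29.1%, above the 22.4% of Srsf3.

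Of the other abundant SRSF members, Srsf7, a close relative of Srsf3, ranged from 5.17 to 360 TPM with a median of 152 in Ecad+ and from 0 to 1341 TPM with a median of 124 in Ecad- cells. Its relative ratio was -0.21, and between -0.24 and -0.11 in the sets. Srsf10, a factor whose dephosphorylated form represses splicing after heat shock, ranged from 8.59 to 255 TPM with a median of 99.7 in Ecad+ and from 0 to 1813 TPM with a median of 129 in Ecad- cells. Its relative ratio of 0.35 was 0.82 in library set 3 and 0.07 and 0.10 in sets 1 and 2, and it was -0.05 without the cells of low share (-0.07, -0.11 and 0.22 by set).

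At the lower end of the family, Srsf2, a regulator of exon inclusion that is mutated in myeloid neoplasms, ranged from 1.77 to 275 TPM with a median of 90.5 in Ecad+ and from 0 to 592 TPM with a median of 63.7 in Ecad- cells. Its relative ratio was -0.57, with -0.71, -0.81 and -0.10 by set, and -0.42 without the cells of low share, which is inside the threshold. Reads of Mettl23 and Mfsd11, which overlap Srsf2 on the other strand, cannot be told apart from its own where they overlap. Srsf5, which like Srsf2 activates exons, ranged from 24.4 to 190 TPM (median 88.3) in Ecad+ and from 0 to 600 TPM (median 70.3) in Ecad- cells, with a relative ratio of -0.46. With all cells, both genes lay near the all-gene median in library set 3 and well under it in sets 1 and 2. Without the cells of low share Srsf5 was at -0.36, and at -0.62, -0.71 and 0.53 by set. In set 3 it thus passed the threshold in the other direction, while Srsf2 was at -0.05 there. The remaining members, Srsf1, Srsf4, Srsf6 and Srsf9, had relative ratios from -0.41 (Srsf9) to -0.15 (Srsf4).

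In the hnRNP family, 3 members were called higher, 3 lower and 10 neither, and the median relative log2 ratio was -0.15. By set the median was 0.13, -0.13 and -0.13, and it was -0.06 without the cells of low share. The summed level ran from 586 to 3440 TPM with a median of 1431 in Ecad+ cells and from 578 to 3879 TPM with a median of 1549 in Ecad- cells. The family total, which is not centred, thus differed little, while the centred ratios of single members lay in both directions.

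Hnrnpc, a nuclear protein that binds uridine tracts of nascent RNA and keeps cryptic exons out (chr14:52073377-52104028), was higher in Ecad- cells in each set and past the threshold under every centred alternative. It ranged from 20.6 to 163 TPM with a median of 71.2 in Ecad+ cells and from 0.094 to 573 TPM with a median of 137 in Ecad- cells. Of the 97 Ecad- cells, 39 lay above the highest Ecad+ cell and 80 above the Ecad+ median. The means were 77.2 ± 30.9 and 164 ± 118 TPM (SD over 100 and 97 cells), and the relative ratio of 0.77 was 0.46, 0.58 and 1.11 by set and 0.63 without the cells of low share. Its part of the family's summed mean level was 5.08% in Ecad+ and 9.61% in Ecad- cells.

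A pair of relatives that bind guanine-rich elements, Hnrnph3 and Hnrnph2, were also called higher. Hnrnph3 was listed at 0 in 24 Ecad+ and 25 Ecad- cells and reached 85.5 TPM in Ecad+ (median 5.52) and 213 TPM in Ecad- cells (median 13.1). Its relative ratio of 0.99 was 0.58, 0.91 and 1.55 by set, and 0.50 without the cells of low share, just under the threshold. Rufy2 overlaps it on the other strand. Hnrnph2, an X-linked gene, had means of 40.9 and 76.4 TPM and a relative ratio of 0.58, which was 0.11 without the cells of low share. The abundant relative Hnrnph1 ranged from 0.21 to 385 TPM (median 122) in Ecad+ and from 0 to 930 TPM (median 131) in Ecad- cells, with a relative ratio of 0.02. Hnrnph1 and Hnrnph2 have near-identical coding stretches, so the division of reads between them is uncertain.

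Hnrnpa1, a shuttling protein that represses exons and opposes SR proteins (chr15:103240432-103246692), stood lowest of the 34 members. It ranged from 6.25 to 554 TPM with a median of 183 in Ecad+ and from 0 to 487 TPM with a median of 111 in Ecad- cells. No Ecad- cell exceeded the highest Ecad+ cell, 47 lay under the Ecad+ lower quartile, and 4 were at 0 against 0 in Ecad+. The means of 206 ± 134 and 143 ± 129 TPM gave a relative ratio of -0.83. By set the ratio was -0.03, -1.10 and -1.37, so library set 1 did not show the difference. Without the cells of low share the ratio was -0.56 in all sets together, and 0.02, -0.99 and -1.32 by set. Many processed pseudogenes resemble Hnrnpa1, so the share of its reads given to them is uncertain.

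Hnrnpl, which binds CA-rich elements, had means of 58.8 and 42.6 TPM and a relative ratio of -0.76 (-0.21, -1.27 and -0.97 by set, and -0.53 without the cells of low share). Its highest Ecad- cell, at 137 TPM, lay under the highest Ecad+ cell, at 188 TPM. Hnrnpr had means of 51.1 and 40.4 TPM and was at 0 in 1 Ecad+ and 16 Ecad- cells. Its relative ratio of -0.64 was -0.37 without the cells of low share. Genes on the other strand overlap both, Gm44702 for Hnrnpl and Gm27022 for Hnrnpr. The lower hnRNP genes therefore lay below the median gene in each of the 3 sets, by 0.03 to 1.37 on the log2 scale.

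The most abundant hnRNP genes besides Hnrnpa1 were inside the threshold. Hnrnpa2b1, which packages transcripts together with Hnrnpa1, ranged from 84.4 to 740 TPM (median 289) in Ecad+ and from 2.44 to 1714 TPM (median 272) in Ecad- cells, with a relative ratio of -0.19. Hnrnpab ranged from 6.79 to 715 TPM (median 185) in Ecad+ and from 0 to 892 TPM (median 189) in Ecad- cells, with a relative ratio of -0.41. The group medians of both genes lay close together. Hnrnpd had relative ratios of both signs, 0.88, -0.48 and 0.16 in the 3 sets. The remaining members, Hnrnpf, Hnrnpm, Hnrnpa0, Hnrnpk, Hnrnpa3 and Hnrnpu, lay between -0.45 (Hnrnpu) and 0.38 (Hnrnpf).

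In the SF3 family, 1 of 8 members was called higher, 0 lower and 7 neither, and 6 lay above the all-gene median. The median relative log2 ratio was 0.20, with 0.13, 0.10 and 0.54 by set. Without the cells of low share it was -0.0025 in all sets together, and 0.17, 0.04 and 0.26 by set. The summed level ran from 120 to 585 TPM with a median of 315 in Ecad+ and from 54.9 to 969 TPM with a median of 440 in Ecad- cells.

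Sf3b4, the SF3B subunit that contacts RNA upstream of the branch site, ranged from 9.26 to 145 TPM with a median of 46.8 in Ecad+ and from 0 to 297 TPM with a median of 76.5 in Ecad- cells. Of the 97 Ecad- cells, 75 lay above the Ecad+ median and 15 above the highest Ecad+ cell. Its relative ratio of 0.54 was 0.31, 0.26 and 0.91 by set, and 0.21 without the cells of low share. Gm17690 overlaps it on the other strand. Sf3b1, the scaffold that grips the branch site and is mutated in several cancers, ranged from 11.5 to 120.4 TPM (median 51.4) in Ecad+ and from 0 to 351 TPM (median 62.3) in Ecad- cells. Its relative ratio of 0.15 was the most even of the family, at 0.22, 0.12 and 0.13 by set and 0.20 without the cells of low share.

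Sf3b5, a small SF3B subunit and the most abundant of the family, ranged from 15.6 to 239 TPM (median 90.0) in Ecad+ and from 0 to 457 TPM (median 91.9) in Ecad- cells, with a relative ratio of -0.11. Sf3a3, an SF3A subunit, ranged from 0 to 129 TPM (median 57.6) in Ecad+ and from 0.065 to 334 TPM (median 61.8) in Ecad- cells, with a relative ratio of -0.08. Both lay close to the median gene over all cells. By set Sf3a3 was at 0.05, -0.10 and -0.13, and Sf3b5 at -0.09, 0.18 and -0.37. Without the cells of low share Sf3b5 was at -0.17, and at -0.01, 0.06 and -0.64 by set, past the threshold in set 3. The low-level subunits Sf3a2 (0 to 42.0 TPM, median 8.86, in Ecad+ and 0 to 130.1 TPM, median 11.9, in Ecad- cells) and Sf3b3 (0 to 49.4 TPM, median 13.2, and 0 to 143 TPM, median 19.0) had relative ratios of 0.38 and 0.28, and -0.04 and -0.11 without the cells of low share. Sf3b2 and Sf3a1 were at 0.24 and 0.16.

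Across library sets, 10 of the 34 members lay above the all-gene median in each of the 3 sets, where 29.5% of all genes did, and 13 lay below it in each, where 29.5% of all genes did. By family the counts were 2 above and 6 below for SRSF, 4 and 7 for hnRNP, and 4 and 0 for SF3. The 5 averaged pairs reach across sets, so the sets share 5 cells.

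All 34 members varied more between Ecad- than between Ecad+ cells, as did 96.4% of the 7227 genes. The median SD of log2(TPM + 1) was 0.88 in Ecad+ and 1.78 in Ecad- cells for the members, and 1.32 and 2.03 for all genes, so the members varied less than the median gene in either group, though this SD also depends on the level. The median Ecad+ cell had all 34 members above 0 (lowest 31) and the median Ecad- cell 33 (lowest 19). All 34 were above 0 in 67 of 100 Ecad+ and 22 of 97 Ecad- cells. For 30 members the share of cells above 0 was lower in Ecad- cells, as it was for 90.5% of all genes. Srsf4 was the clearest case among the SRSF genes, with 91 of 100 Ecad+ cells above 0 (91.0%, exact 95% limits of 83.6% and 95.8%) but 58 of 97 Ecad- cells (59.8%, limits of 49.3% and 69.6%). The intervals cover counting error over cells only.

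Within each group, members varied together more than they did with other genes. The median Spearman correlation over 561 pairs of members was 0.26 across Ecad+ cells and 0.19 across Ecad- cells, against 0.10 and 0.08 for a member with any other gene at or above the floor. Cells share library depth and composition, and the other genes were not matched to the members for level, so this is a description. The cells were also pooled over the 3 library sets, whose levels differ. In Ecad+ libraries, for example, Hnrnpa1 had means of 158, 304 and 138 TPM by set. The SRSF pairs had medians of 0.35 and 0.22, the hnRNP pairs 0.23 and 0.20 and the SF3 pairs 0.32 and 0.22. Srsf7 and Srsf3 were the most alike pair, at 0.76 in Ecad+ and 0.73 in Ecad- cells. Srsf11 and Hnrnpc, both higher in Ecad- cells, were correlated at 0.40 and 0.39 within the groups, and at 0.26 and 0.25 after each cell was rescaled without mitochondrial and ribosomal protein genes.

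The level of Srsf11 moved with the mitochondrial share of a cell inside both groups. The Spearman correlation was -0.49 over 100 Ecad+ and -0.46 over 97 Ecad- cells, against medians of -0.23 and -0.13 over all genes. This was not particular to Srsf11, since Sf3b4 was at -0.59 and -0.49. The family medians in Ecad+ and Ecad- cells were -0.43 and -0.34 for SF3, -0.34 and -0.09 for SRSF, and -0.09 and -0.16 for hnRNP. TPM is a share of a fixed total, of which the mitochondrial transcripts are a part. The cells of a group were pooled over the library sets here too. With each cell rescaled without mitochondrial and ribosomal protein genes, the Srsf11 correlation was -0.05 in Ecad+ and -0.25 in Ecad- cells. For Hnrnpc it was -0.44 and -0.32 before rescaling and 0.14 and -0.08 after, and for Hnrnpa1 0.12 and 0.08 before and 0.36 and 0.23 after. Between the groups, the relative log2 ratio after this rescaling was 1.29 for Srsf11, 0.72 for Hnrnpc and -0.89 for Hnrnpa1, so all 3 remained past the threshold.

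**Figure D4:**
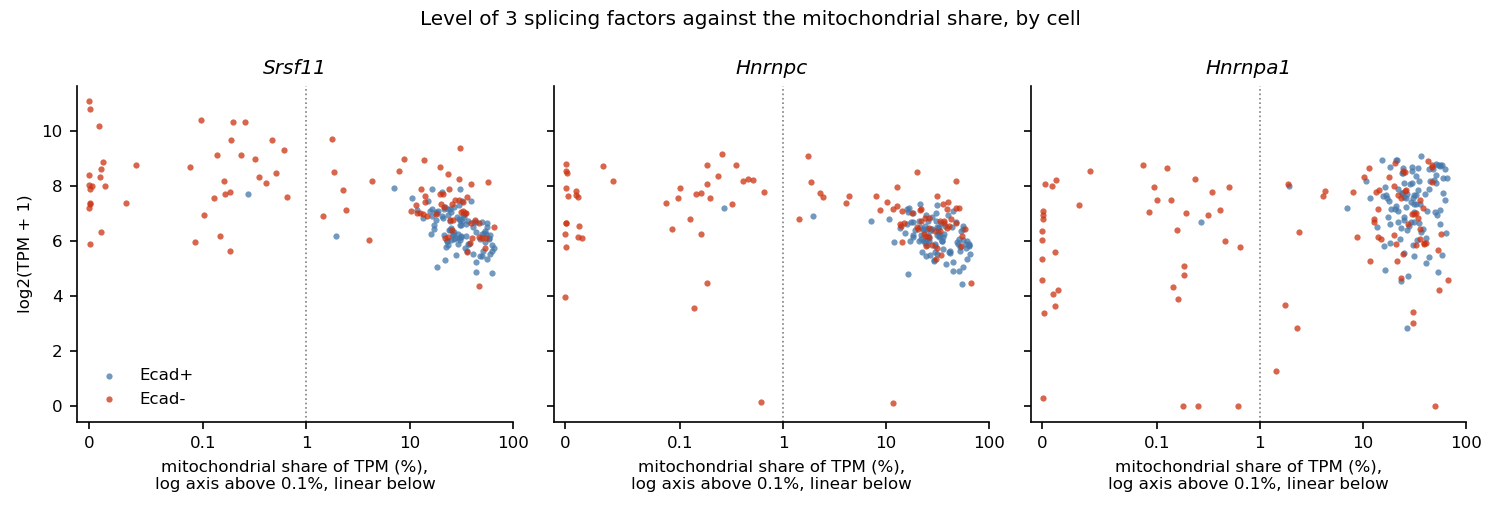
Level of Srsf11, Hnrnpc and Hnrnpa1 as log2(TPM + 1) against the mitochondrial share of TPM, one point per cell, with the dotted line at a share of 1%. To the left of the line lie 40 Ecad- cells and 1 Ecad+ cell. The Ecad- mean of Srsf11 is 314 TPM with the cells left of the line and 191 TPM without them.

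Transcripts of SR and hnRNP genes are known to include forms with premature stop codons that are destroyed by nonsense-mediated decay, by which many of these proteins limit their own level. GENCODE M21 lists such a transcript for 18 of the 34 members (52.9%), against 30.2% of the 7138 annotated genes at or above the floor. By family it was 9 of 10 SRSF, 8 of 16 hnRNP and 1 of 8 SF3 genes. A retained-intron transcript was listed for 24 members (70.6%), against 61.5% of all. The members also had more transcripts listed, with a median of 7.5 against 5 for all genes. The shares were not adjusted for this number. The deposited values are sums per gene, so the levels of these forms were not analysed here, and a higher gene level does not separate coding from non-coding forms. This holds for Srsf11, with 3 decay and 11 retained-intron transcripts among its 19.

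Genes that act with the 3 families were described in lists, with the same threshold and with the same shares over all genes to set them against (20.8% called higher and 21.3% lower). Without the cells of low share, 1006 of the 7227 genes were called higher and 1141 lower. The kinases and phosphatase regulator of SR proteins had 9 of 10 genes at or above the floor, a median relative ratio of 0.32, and 3 genes called higher and 0 lower. The Clk kinases phosphorylate SR proteins in the nucleus: Clk4 had means of 38.4 and 167 TPM (relative ratio 1.78, and 0.82 without the cells of low share) and Clk1 48.9 and 122 TPM (1.00 and 0.91). Dyrk1a was at 0.88, but its Ecad+ mean of 4.69 TPM is under the floor, so it was included only through its Ecad- level. The same holds for Ptbp2, Upf2, Dhx8 and Ddx42 in the lists below and for none of the 34 members. Celf2 (5.62 and 3.73 TPM) and Lsm3 (6.33 and 3.52 TPM) had Ecad+ means above 5 TPM but were left out through their Ecad- level. Tra2 and SR-related proteins, the nearest relatives of the SRSF family, had a median of 0.38 over 15 genes, with 7 called higher and 0 lower. Without the cells of low share their median was 0.08 and 2 were called higher. Son, a large speckle protein, was at 1.01, Tra2a at 0.92 and Rnps1 at 0.70, and at 0.67, 0.20 and 0.14 without those cells.

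Around SF3, the Sm and U1/U2 snRNP proteins had a median of 0.08 over 11 genes (1 higher, 0 lower), led by Snrpb2 at 0.51, Snrpc at 0.45 and Snrpb at 0.29. The factors that bring U2 to the branch site had a median of 0.11 over 13 genes (2 higher, 0 lower). Phf5a, a further SF3B subunit whose symbol falls outside the 3 patterns, had means of 131 and 298 TPM and a relative ratio of 0.87, which was -0.04 without the cells of low share. U2surp was at 0.56 and Sugp1 at -0.49, and at -0.11 and -0.79 without those cells. The median of these factors was then -0.04, with 0 called higher and 1 lower. The proteins of the U4/U6.U5 tri-snRNP and the catalytic steps had 10 of 26 genes called higher and 3 lower, with a median of 0.23. Prpf3 was at 1.49 (0.90 without the cells of low share), Prpf39, a U1-associated protein kept in this list, at 1.23 and Lsm2 at -1.24 (-1.16), so the difference of Lsm2 remained nearly as large without those cells.

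Other hnRNP proteins, named under different symbols, had a median of 0.14 over 15 genes (4 higher, 1 lower), among them Tardbp at 0.65 and Taf15 at 0.65 (0.48 and 0.49 without the cells of low share). Ptbp2, counted as higher, had means of 2.97 and 10.8 TPM. Hnrpdl and Hnrpll, which the symbol patterns missed, were at 0.26 and 0.40. Regulators tied to tissue or cell state had a median of 0.42 over 9 of 16 genes (3 higher, 2 lower), with Rbm39, a relative of the large U2AF subunit, at 1.00, Qk at 0.78 and Rbm10 at -0.82 (0.66, 0.35 and -0.61 without the cells of low share). Under the floor, Esrp2 was at -1.43 (4.86 and 1.69 TPM) and Celf2 at -0.79, and at -0.83 and -0.50 without those cells. Rbfox2 and Rbm5, also under it, were at 0.22 and 0.25, and at 0.34 and -0.62 without those cells. The exon junction and decay genes had a median of 0.34 over 8 genes (1 higher, 0 lower), with Rbm8a at 0.51, Upf2 at 0.43 and Smg8 at 0.40. Without the cells of low share their median was 0.13 with 0 called, and Rbm8a was at 0.41, Upf2 at 0.46 and Smg8 at -0.14. The mRNA export genes had a median of -0.16 over 12 genes with 0 called in either direction, and Nxt1, Thoc6 and Thoc3 were at -0.46, -0.36 and -0.26. The list medians thus ran from -0.16 for export to 0.42 for the regulators of tissue or cell state.

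**Figure D5:**
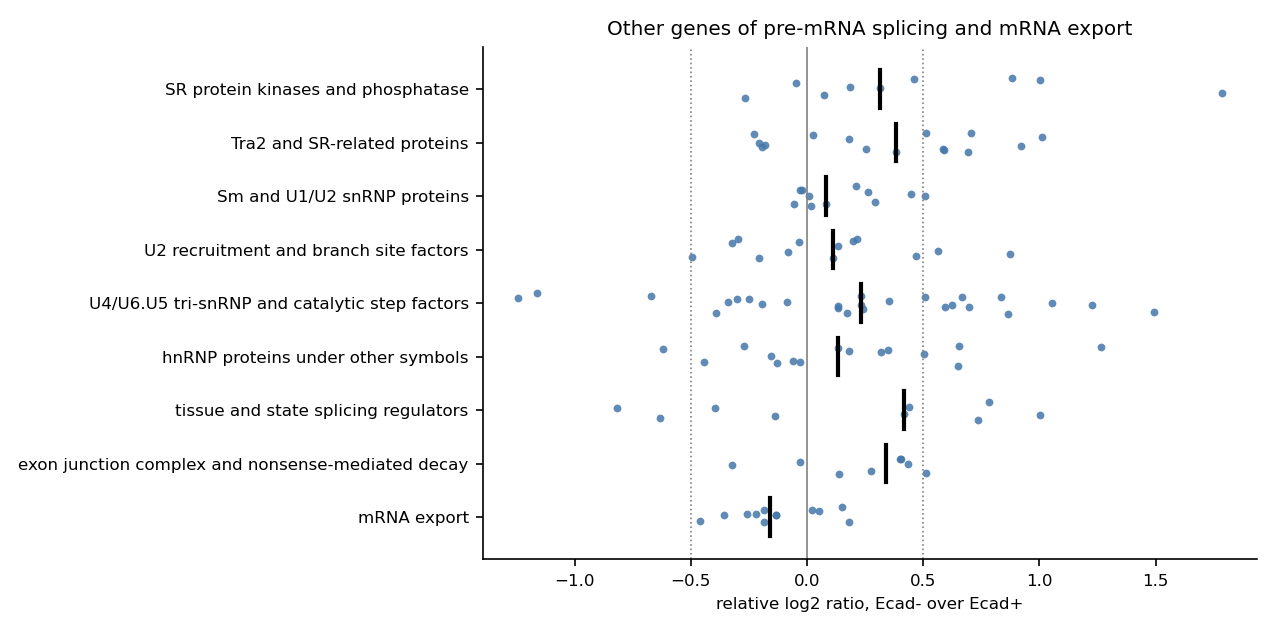
Relative log2 ratio of the genes at or above the floor in 9 lists of splicing and export genes, one point per gene, with the list median as a bar. Clk4 at 1.78 and Lsm2 at -1.24 are the ends of the range, and the export list has no gene past 0.5 in either direction.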

How the data were processed

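Single-cell RNA was measured in 202 libraries of sorted Ecad+ and Ecad- cells. Per the submitters' processing notes, FastQC 0.11.5, kallisto (no version) and build mm10 were used. The authors deposited log2 values. Back-transformed, each library summed to 933711 to 987134, so they were read as log2(TPM + 1). The authors' comparison columns were not used. Read depth cannot be recovered from TPM, which leaves levels without a counting error. The tool kallisto divides reads between similar transcripts. Groups came from the labels. Values were computed with Python 3.11.15, numpy 2.4.6, pandas 2.3.3 and scipy 1.17.1, with a pseudocount of 1 TPM, and the code was tested on simulated data. Positions came from GENCODE M21, in which 27458 identifiers were found. Promoters are from RefSeq, GRCm38.p6. Cell values are given for the 4 members of a family with the highest mean and the 3 with the largest ratio, and up to 3 genes of a list by ratio. Further genes of the lists are named where they lie under the floor or were let in through 1 group. Members and lists were chosen with earlier results of these data known. The 4 RNAs of a list of nuclear retained RNAs were not analysed here, nor was Ddx39a. Intervals are exact Clopper-Pearson intervals at 95%. Doublets were not called. Alternatives were other means, centring, scaling, pseudocounts, floors and sets of cells.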

Additional observations from a re-analysis of the deposited data

How the results depend on the processing

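Under 15 alternatives, 14 of them centred on the all-gene median, all 9 called members kept their sign in every centred one, and 3 stayed past 0.5 in all: Srsf11 (0.85 to 1.62), Hnrnpc (0.53 to 1.01) and Hnrnpa1 (-1.17 to -0.52). Of the other 25, 11 passed 0.5 under at least 1 centred alternative. The median relative ratio moved from -0.11 to 0.19 (all members), -0.27 to 0.040 (SRSF), -0.15 to 0.16 (hnRNP) and 0.20 to 0.51 (SF3) with no centring, and to 0.075, -0.033 and 0.052 for all, SRSF and hnRNP members with no floor. The count of higher members, 5, was 8 with means of log2 values, 11 with no centring, 10 with no floor, 3 with a floor of 50 TPM, 2 without the cells of low mitochondrial share and 8 without library set 2. The count of lower members, 4, was 2 with means of log2 values, 1 with no centring, 2 with a pseudocount of 10 TPM, 2 with no floor and 2 without the cells of low share. No centring gave 2677 higher and 843 lower of all genes, and no floor 4127 and 1700 of 21837, against 1502 and 1541. Means of log2 values gave 1735 and 1871, and a pseudocount of 10 TPM gave 1034 and 919. Leaving out the cells of low share gave 1006 and 1141, and leaving out library set 2 gave 1626 and 1637. The floor of 50 TPM gave 397 and 442 of 2096 genes and left 24 members, while no floor took in 38. Of single members' values, 41 moved by more than the SD over the library sets and 459 did not. Both no-centring and no-floor values shift by construction with the subtracted median; the cause of the other differences was not tested. Depth limits cannot be given, since TPM keeps none. No paired analysis was possible because each group is 1 sample and no test was made.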
